A study of Mus musculus with 2 samples.

Results

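Cxcl13 (ENSMUSG00000023078), Cxcr5 (ENSMUSG00000047880), Tnfsf13b (ENSMUSG00000031497), Tnfrsf13b (ENSMUSG00000010142), Tnfrsf13c (ENSMUSG00000068105) and Tnfrsf17 (ENSMUSG00000022496) form the ligands and receptors through which B-lineage cells are attracted and kept alive. These 6 genes were taken by symbol from the 33696 features listed for both libraries, and each symbol matched 1 feature. They were chosen by the measured UMIs of Cxcl13, which had already been seen to be high in microglia of the anti-CD9 Ab library, so its direction there is described here and was not tested. The cells came from the thalamus of C57B6/J mice, as the labels spell the strain, with a unilateral cortical ablation injury (CAI), in which cortical tissue is resected and the thalamus, which is not itself cut, becomes inflamed over the following weeks. All mice carried a thalamic cannula through which control Ab, a normal rat IgG, or anti-CD9 Ab, a rat antibody against the tetraspanin CD9, was injected from day 7 to day 19 after injury. Live CD45+ cells were sorted on day 21, and each antibody had 1 library. Other libraries of the study were not analysed here, and with 1 library for each antibody the antibody, the mice pooled and the library cannot be told apart. Both antibodies were given at 1.0 µg/µl. For the study's mice an age of 12 weeks and, for most experiments, female sex are stated, and the pooling of cells from 4 mice is stated for its thalamus libraries without naming the antibody groups.

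CXCL13 is a chemokine that draws cells bearing CXCR5, which are mainly mature B cells and follicular helper T cells, into lymphoid follicles. BAFF, the product of Tnfsf13b, is a survival factor made largely by myeloid cells. It binds BAFF-R (Tnfrsf13c), on which mature B cells depend, TACI (Tnfrsf13b) and BCMA (Tnfrsf17), a receptor of plasma cells. TACI and BCMA also bind APRIL, the product of Tnfsf13. In inflamed brain and meninges, both CXCL13 and BAFF are known from tissue in which B-lineage cells gather.

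After the quality limits, 7467 control Ab cells and 9162 anti-CD9 Ab cells were kept, with medians of 1880 and 1419 UMIs. Levels are given as CPM, the UMIs of a gene per 1000000 UMIs of the same cells, with exact Poisson intervals at 95%. Shares of cells have exact binomial intervals at 95%, and all intervals cover counting error only. No p-value was computed because each antibody had 1 library. Cell classes were built from clusters and named from marker lists. Clusters that met no name held 21.7% of the control Ab cells and 28.9% of the anti-CD9 Ab cells. By sequence, 54 barcodes occurred in both libraries. The libraries differed widely in composition, with 64 neutrophil-like cells against 2624, and 1947 microglia-like cells against 855, in the order control Ab and anti-CD9 Ab, which is kept throughout.

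The B-lineage classes were named from their own markers, so the levels of these describe the classes and do not check the labels. B cell-like cells had UMIs of all 9 B cell markers in both libraries, and their cluster was led by Ebf1, Bank1, Ly6d and Ms4a1. Plasma cell-like cells were led by immunoglobulin genes, Jchain and Mzb1, and the summed plasma cell markers stood at 41642 and 33257 CPM. Other cells' markers were present in them as well. T cell markers summed to 952 and 411 CPM in B cell-like cells and to 353 and 35.8 CPM in plasma cell-like cells, against 7894 and 6204 CPM in T cell-like cells. Microglia markers summed to 1115 and 328 CPM in B cell-like and 536 and 107 CPM in plasma cell-like cells. Monocyte/macrophage markers summed to 1841 and 1816 CPM and to 702 and 869 CPM in these classes, and neutrophil markers to 488 and 1165 CPM and to 22.8 and 265 CPM. Plasma cell markers summed to 1152 and 1688 CPM in B cell-like cells. B cell markers summed to 1144 and 758 CPM in plasma cell-like cells. Of the cells in the B cell-like cluster, both libraries together, 26.8% were predicted doublets.

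Cxcl13 was the member with the largest difference in microglia. Over all kept cells, Cxcl13 had 978 UMIs in the control Ab library and 3388 in the anti-CD9 Ab library, or 39.2 (36.8 to 41.8) and 149 (144 to 155) CPM. Over these cells 2 members, Cxcl13 and Cxcr5, were at least 2-fold higher with anti-CD9 Ab and 1, Tnfrsf17, at least 2-fold lower, where 7.41% and 21.5% of 15131 genes lay past those folds and their median log2 ratio was -0.37. In microglia-like cells Cxcl13 had 746 and 1949 UMIs, or 69.7 (64.8 to 74.9) and 639 (611 to 668) CPM, a 9.16-fold higher level with anti-CD9 Ab (log2 ratio 3.20, 3.07 to 3.32). Without integration of the libraries, where only 210 anti-CD9 Ab cells were microglia-like, it had 61.1 and 271 CPM, a 4.44-fold higher level (log2 ratio 2.15, 1.92 to 2.37). Ordered from the highest log2 ratio, it stood at place 24 of the 11134 genes with at least 50 UMIs in these cells. Of the 6 members, 4 reached 50 UMIs in microglia-like cells. Of these, 1 was at least 2-fold higher with anti-CD9 Ab (Cxcl13) and 1 at least 2-fold lower (Tnfrsf17), where 3.32% and 4.51% of all such genes lay past the same folds. The 6 genes were chosen by the level of Cxcl13 in these cells. Its place and its part in this count are therefore descriptions only.

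Because Cxcl13 carried this difference, the 250 bases upstream of its annotated start are shown beside those of Tnfsf13b, the other ligand, from RefSeq on GRCm38.p6 (chr5:95956689-95956938 and chr8:10006217-10006466, both on the plus strand). The deposited counts were made on GRCm39, so these coordinates belong to the RefSeq table alone. Capitals mark TATAAA, searched on both strands.
Cxcl13: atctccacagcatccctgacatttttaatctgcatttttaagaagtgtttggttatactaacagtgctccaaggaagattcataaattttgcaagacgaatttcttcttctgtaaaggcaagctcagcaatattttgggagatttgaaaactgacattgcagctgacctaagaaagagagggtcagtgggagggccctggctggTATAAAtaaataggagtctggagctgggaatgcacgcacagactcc
Tnfsf13b: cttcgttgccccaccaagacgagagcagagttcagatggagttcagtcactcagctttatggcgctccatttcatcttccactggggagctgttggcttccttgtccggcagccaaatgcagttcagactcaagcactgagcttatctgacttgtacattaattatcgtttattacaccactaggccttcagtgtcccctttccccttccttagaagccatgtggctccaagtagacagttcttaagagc
In Cxcl13 the match began 46 bases before the annotated start. Tnfsf13b had no match in either of its 2 windows, and 12.4% of all 32851 promoter windows held one. A loose form of the NF-kB site occurred in Cxcl13 but not in Tnfsf13b, and in 45.8% of all windows. The table held windows for 5 of the 6 members, and TATAAA occurred in 2 of these 5, Cxcl13 and Tnfrsf17.

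**Figure D1:**
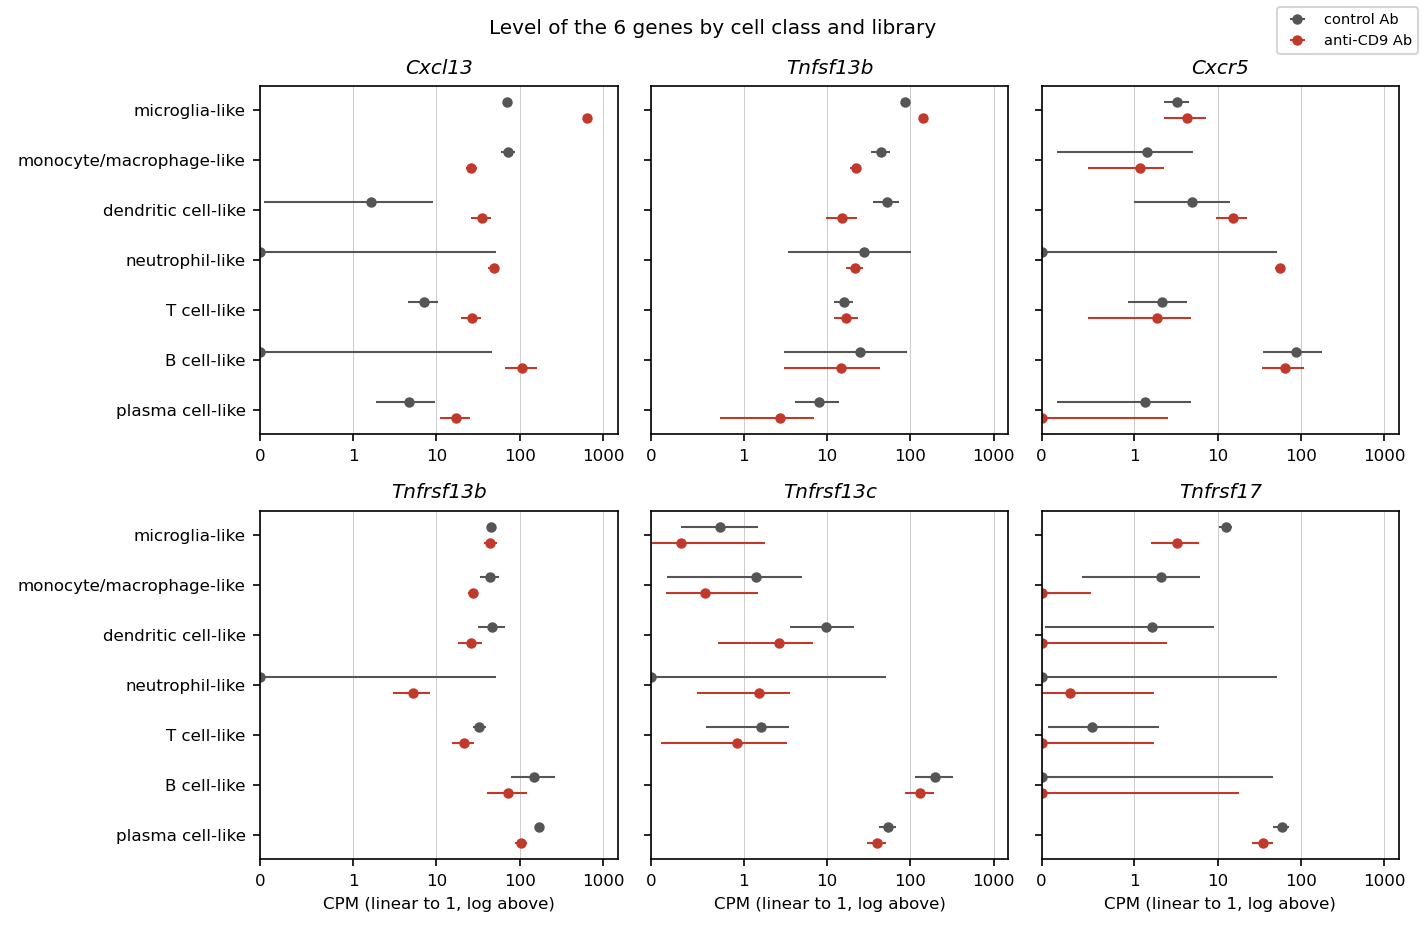
CPM of each of the 6 genes (x axis, linear to 1 and log above) in 7 cell classes (y axis), with control Ab in gray and anti-CD9 Ab in red; points are sums over all cells of a class and bars are exact 95% Poisson intervals. Cxcl13 in microglia-like cells lies at 69.7 and 639 CPM, while Tnfrsf13c and Tnfrsf17 have their highest points in the B-lineage classes at the bottom of each panel.

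The microglia-like class joined 2 clusters. The one led by Siglech and P2ry12, genes of homeostatic microglia, had Cxcl13 at 27.1 (22.3 to 32.7) and 363 (333 to 395) CPM. The other, led by Lpl, Spp1 and Cst7, genes of damage-associated microglia, had it at 95.7 (88.4 to 103) and 908 (861 to 956) CPM. Both clusters were thus higher with anti-CD9 Ab, and within each library the Lpl-led cluster was above the Siglech-led one. Beyond the named class, an unnamed cluster of cycling cells with 3 of 8 microglia markers up had 58.1 (39.2 to 82.9) and 1125 (993 to 1270) CPM in 57 and 50 cells. An unnamed cluster led by Hbb-bs, a globin gene, with 2 microglia markers up, had 15.4 (5.01 to 35.98) and 235 (174 to 310) CPM. The leading genes of these clusters were taken over both libraries together. Without integration, 80 anti-CD9 Ab cells lay in a Siglech-led cluster, 130 in an Lpl-led one and 608 in an unnamed one described below. Whether the anti-CD9 Ab cells of each integrated cluster were in the state its leading genes name was not tested.

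At equal depth the difference lay both in how many microglia carried Cxcl13 and in how much each carried. With each cell thinned to 1000 UMIs, 67 of 1901 microglia-like cells (3.52%, 2.74 to 4.45) and 123 of 836 (14.7%, 12.4 to 17.3) had a Cxcl13 UMI, against 8.78% and 25.6% unthinned. Without integration the thinned shares were 2.99% (2.28 to 3.85) and 7.25% (4.11 to 11.7). T cell-like cells, taken as cells that should lack the gene here, had 0.538% (0.258 to 0.988) and 2.21% (1.27 to 3.57) at the same depth. Their median depths before thinning were 1479 and 2142 UMIs, and those of microglia-like cells 3140 and 3346. The microglial shares were above this background in both libraries, and the background itself was higher with anti-CD9 Ab. Thinned cells with 5 or more Cxcl13 UMIs numbered 2 of 1901 (0.105%, 0.0127 to 0.380) and 40 of 836 (4.78%, 3.44 to 6.46).

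**Figure D2:**
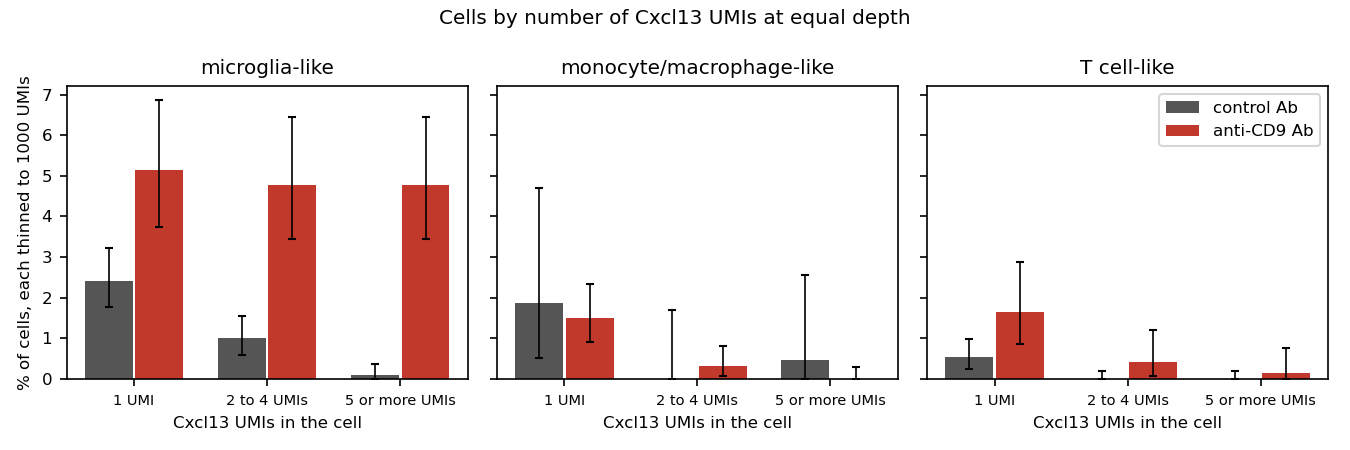
Percent of cells with 1, 2 to 4, or 5 or more Cxcl13 UMIs (y axis), each cell thinned to 1000 UMIs, in microglia-like, monocyte/macrophage-like and T cell-like cells, control Ab in gray and anti-CD9 Ab in red; bars have exact 95% binomial intervals. In microglia-like cells the class of 5 or more UMIs holds 0.105% (gray) and 4.78% (red).

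Before thinning, 171 and 219 microglia-like cells had any Cxcl13 UMI, and the highest single cells had 39 and 81. The 10 highest cells held 33.4% and 28.6% of the class's Cxcl13 UMIs. Without those 10 cells in each library the levels were 47.1 and 465 CPM. The message was therefore concentrated in a minority of cells in both libraries, and the difference between libraries did not rest on the few highest ones.

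Monocyte/macrophage-like cells went the other way in CPM, but on very few cells. They had 103 and 180 Cxcl13 UMIs, or 72.4 (59.1 to 87.8) and 26.3 (22.6 to 30.4) CPM. With control Ab, 11 of 218 cells had a UMI, the highest cell had 74 and the 10 highest held 99.0% of the UMIs. Without the 10 highest cells in each library the level was 0.750 CPM with control Ab, from 1 UMI, and 10.3 CPM with anti-CD9 Ab, the reverse order. This removal took 10 of the 11 control Ab cells with a UMI but 10 of 71 with anti-CD9 Ab. The reversed order therefore cannot show which library was higher. The thinned shares were 2.33% (0.759 to 5.34) and 1.82% (1.16 to 2.71). The share with anti-CD9 Ab was below that of T cell-like cells and, for the class as a whole, is read as background. A few cells stood apart before thinning. With anti-CD9 Ab, 4 cells had 10 or more Cxcl13 UMIs and the highest had 41, against 0 cells and a highest of 8 in T cell-like cells. Microglia markers in this class summed to 3353 and 663 CPM, and their part in the result was not tested.

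In dendritic cell-like, neutrophil-like and B cell-like cells Cxcl13 was lower than in microglia-like cells of the same library. Dendritic cell-like cells had 1 and 53 UMIs, or 1.62 (0.0411 to 9.04) and 35.0 (26.3 to 45.8) CPM. Neutrophil-like cells had 0 UMIs in the 64 control Ab cells, which allows up to 41.8 CPM, and 49.0 (41.7 to 57.2) CPM with anti-CD9 Ab. In B cell-like cells, 0 UMIs of 79854 were seen in the control Ab library and 22 in the other (67.5 to 163 CPM). These 22 lay in 4 cells, with 16 in a single cell. Of the thinned anti-CD9 Ab cells of this class, 2 of 85 (2.35%) had a UMI, close to the T cell-like share. In contrast, an unnamed cluster of shallow cells led by Ttr (29 and 1147 cells, median 760 UMIs over both) had 0 and 411 UMIs, of which 167 lay in a single cell. Its thinned share with anti-CD9 Ab was 11.2% (7.98 to 15.2) of the 321 cells deep enough, above that of T cell-like cells. The other 826 cells were too shallow. Thinning sets depth equal but not the share of free RNA, whose part in this value was not tested.

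Microglia-like cells held a larger share of the UMIs of both ligands than of all UMIs. They were 26.1% and 9.33% of kept cells, with 42.9% and 13.5% of all UMIs, and held 76.3% (73.5 to 78.9) and 57.5% (55.8 to 59.2) of Cxcl13 UMIs. Of Tnfsf13b UMIs they held 69.2% (66.7 to 71.7) and 48.1% (44.8 to 51.4). Without integration they were 2.29% of the anti-CD9 Ab cells, with 3.40% of the UMIs, and held 6.17% of the Cxcl13 and 6.67% of the Tnfsf13b UMIs of that library. The next largest holders of Cxcl13 were monocyte/macrophage-like cells with control Ab (10.5%) and the Ttr-led and cycling clusters with anti-CD9 Ab (12.1% and 7.73%).

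**Figure D3:**
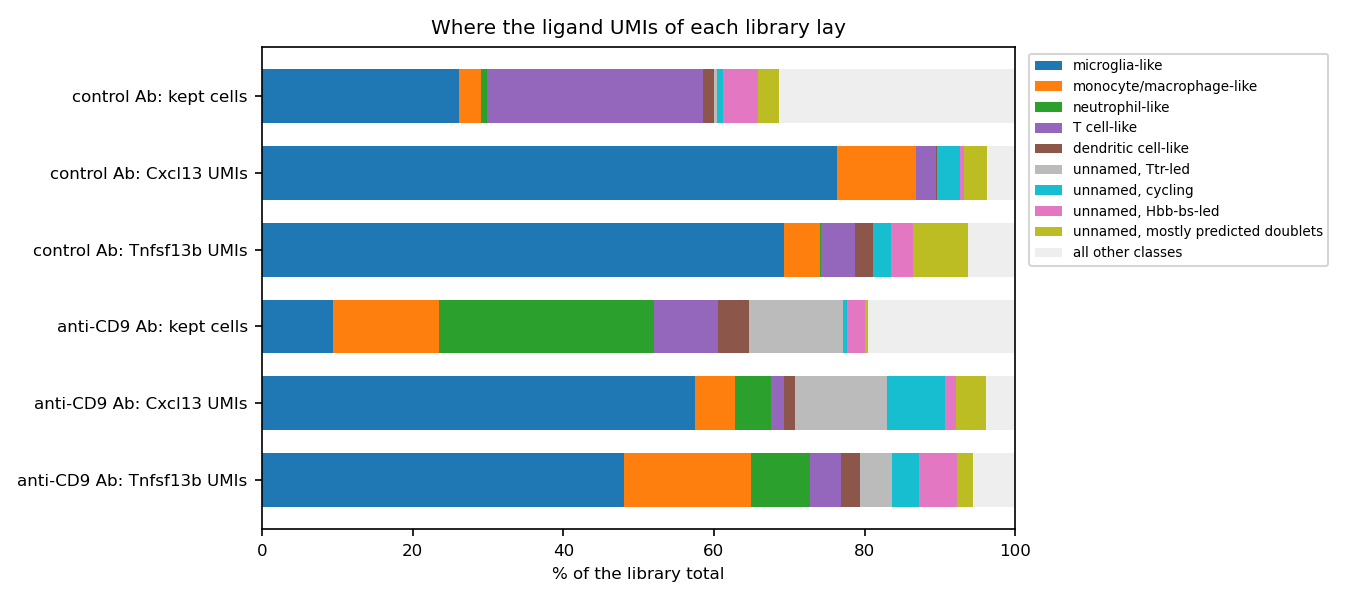
Percent of the kept cells, of the Cxcl13 UMIs and of the Tnfsf13b UMIs of each library (x axis) by cell class, as 1 stacked bar per quantity and library. Microglia-like cells are 9.33% of cells with anti-CD9 Ab and hold 57.5% of the Cxcl13 UMIs and 48.1% of the Tnfsf13b UMIs.

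Tnfsf13b, which encodes BAFF, differed far less. Over all kept cells it had 1317 and 900 UMIs, or 52.8 (49.99 to 55.7) and 39.7 (37.2 to 42.4) CPM. In microglia-like cells, however, it had 912 and 433 UMIs, or 85.2 (79.7 to 90.9) and 142 (129 to 156) CPM, 1.67-fold higher with anti-CD9 Ab. The lower level over all cells thus stood beside a higher one within microglia, which were a smaller share of the anti-CD9 Ab library. The Siglech-led cluster had 100.04 and 151 CPM and the Lpl-led cluster 76.1 and 133 CPM. The microglial ratio depended on the clustering. Without integration of the libraries only 210 anti-CD9 Ab cells were microglia-like, and the Tnfsf13b level of the class was 82.3 (77.1 to 87.7) and 77.8 (59.4 to 100.2) CPM. With microglia named from 3 markers in that clustering, the log2 ratio was 0.76.

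Without integration, 91 and 608 cells formed an unnamed cluster led by Ccl12 and Cxcl13 with 3 of 8 microglia markers up. In it Cxcl13 stood at 145 (104 to 197) and 740 (705 to 777) CPM, and Tnfsf13b at 163 (119 to 218) and 161.5 (145 to 179) CPM. Most cells of this cluster came from the anti-CD9 Ab library, and among them Cxcl13 still differed between libraries while the intervals of Tnfsf13b overlapped. Cxcl13 was not among the genes used for clustering. It is a leading gene of this cluster, so its level there is a description.

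Outside microglia, Tnfsf13b was lower with anti-CD9 Ab in the other myeloid classes that could be compared. Monocyte/macrophage-like cells had 63 and 151 UMIs, or 44.3 (34.0 to 56.7) and 22.0 (18.7 to 25.8) CPM. Dendritic cell-like cells had 32 and 23 UMIs, or 51.9 (35.5 to 73.3) and 15.2 (9.64 to 22.8) CPM. Microglia markers stood in the same order, at 3353 and 663 CPM in monocyte/macrophage-like cells and 837 and 396 CPM in dendritic cell-like cells, and their part in these differences was not tested. T cell-like cells had 59 and 37 UMIs, with intervals of 12.2 to 20.6 and 12.1 to 23.6 CPM. Thinned shares in these T cells were 1.51% and 0.830%, against 8.36% (7.16 to 9.70) and 12.4% (10.3 to 14.9) in microglia-like cells.

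Both ligands were at times seen in the same microglia. Among thinned microglia-like cells with anti-CD9 Ab, 22 of 123 with a Cxcl13 UMI also had a Tnfsf13b UMI (17.9%, 11.6 to 25.8), and 82 of 713 without one (11.5%, 9.25 to 14.1). With control Ab the shares were 7.46% (2.47 to 16.6) and 8.40% (7.17 to 9.76). In each library these intervals overlapped.

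Among cells with at most 2% mitochondrial UMIs, Cxcr5, the receptor of CXCL13, was found in B cell-like cells but had most of its UMIs elsewhere. That limit left out many B cells. Of the B cell-like cells found at a limit of 5%, only 27.9% and 14.8% lay within 2%. Their Cxcr5 UMIs at 5%, given below, were more numerous. Over all cells kept at 2%, Cxcr5 had 65 and 268 UMIs, or 2.61 (2.01 to 3.32) and 11.8 (10.5 to 13.3) CPM. B cell-like cells, 29 and 98 in number, had only 7 and 13 of these, or 87.7 (35.2 to 181) and 63.6 (33.9 to 109) CPM, which is too few to show a difference. Plasma cell-like cells, which are known to lose Cxcr5, had 2 and 0 UMIs, and the count of 0 allows up to 2.06 CPM.

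With anti-CD9 Ab, 183 of the 268 Cxcr5 UMIs (68.3%, 62.4 to 73.8) lay in neutrophil-like cells. This share holds for the 2% limit, which left out most of the B cell-like cells found at 5%. Neutrophil-like cells stood at 56.0 (48.2 to 64.7) CPM, and 94 of 1785 thinned cells (5.27%, 4.28 to 6.41) had a UMI, against 0.138% (0.00350 to 0.768) of T cell-like cells of that library. The 64 neutrophil-like cells with control Ab had 0 UMIs, which allows up to 41.8 CPM. Against this limit the level was at least 1.34-fold higher with anti-CD9 Ab, while the exact Poisson interval of the control Ab value reached 51.3 CPM and overlapped the other. Within the anti-CD9 Ab library, the cluster led by Retnlg, S100a8 and S100a9 had 78.4 (63.9 to 95.3) CPM and the one led by Cxcl2, Ccl4 and Rsad2 41.4 (32.9 to 51.4) CPM.

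B cell genes were seldom seen in the Cxcr5-positive neutrophil-like cells. Of the 83 Cxcr5-positive cells in the Retnlg-led cluster and the 72 in the other, 0 had UMIs of 2 or more B cell markers. The median number of B cell markers seen was 0, as in the Cxcr5-negative cells of these clusters, so it does not set them apart. S100a8, a neutrophil marker, had a UMI in 95.2% and 93.1% of the Cxcr5-positive cells, against 88.4% and 73.1% of the other cells. Csf3r, the receptor for granulocyte colony-stimulating factor, had one in 86.7% and 47.2%, against 78.0% and 37.0%. These shares were not taken at equal depth. The Cxcr5-positive cells were deeper, with medians of 1224 and 1345.5 UMIs against 1023.5 and 1268, and the part of depth was not tested. Predicted doublets made up 6.02% and 13.9% of the Cxcr5-positive cells, against 3.32% and 12.5% of the other cells of these clusters. With predicted doublets left out, neutrophil-like cells had 166 Cxcr5 UMIs and 57.8 (49.3 to 67.3) CPM.

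Dendritic cell-like cells had 3 and 23 Cxcr5 UMIs, or 4.87 (1.00 to 14.2) and 15.2 (9.64 to 22.8) CPM. Without integration a separate cluster led by Ccr7 and Fscn1, genes of migratory dendritic cells, held 20 of these UMIs in 161 anti-CD9 Ab cells, at 38.8 (23.7 to 59.9) CPM. The dendritic cell-like class of that clustering then had 2 and 2. In microglia-like cells, 35 and 13 UMIs gave 3.27 and 4.26 CPM, and the thinned shares of 0.421% and 0.359% overlapped those of T cell-like cells.

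T cell-like cells had 8 and 4 Cxcr5 UMIs in 2140 and 779 cells, or 2.17 (0.937 to 4.27) and 1.85 (0.505 to 4.75) CPM. Of the 7 and 4 cells that carried them, 5 and 3 also had a UMI of Icos, Pdcd1, Bcl6 or Sh2d1a, genes of follicular helper T cells. Of all T cell-like cells, 68.0% and 79.5% had a UMI of at least 1 of these 4 genes, so most cells of the class carried such a UMI. At a mitochondrial limit of 5%, 16 and 16 T cell-like cells were Cxcr5-positive. Of these, 13 and 14 had a UMI of at least 1 of the helper genes, beside 67.4% and 79.1% of all T cell-like cells. UMIs of 2 or more were seen in 10 and 12 of them, a count for which the share over all T cell-like cells was not computed.

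Tnfrsf13c, which encodes BAFF-R, had most of its UMIs in the B lineage. B cell-like cells had 16 and 27 UMIs, or 200 (115 to 325) and 132 (87.1 to 192) CPM. Plasma cell-like cells had 80 and 58 UMIs, or 53.7 (42.6 to 66.9) and 39.9 (30.3 to 51.6) CPM. The intervals of the libraries overlapped in both classes. Of all Tnfrsf13c UMIs, plasma cell-like cells held 64.5% (55.4 to 72.9) and 49.6% (40.2 to 59.0), and the few B cell-like cells 12.9% (7.56 to 20.1) and 23.1% (15.8 to 31.8). These shares hold for cells with at most 2% mitochondrial UMIs. At a limit of 5%, B cell-like cells were more numerous, and their UMIs are given below. With anti-CD9 Ab those UMIs exceeded the 57 of plasma cell-like cells at 5%, when a Ttr-led cluster was left out of that class. T cell-like cells had 6 and 2 UMIs, or 1.63 and 0.927 CPM.

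Tnfrsf13b, which encodes TACI, was the most widely seen of the BAFF receptors. Plasma cell-like cells had 256 and 151 UMIs, or 172 (152 to 194) and 104 (87.9 to 122) CPM, 1.66-fold lower with anti-CD9 Ab. The summed plasma cell, B cell, T cell and microglia markers of this class were also lower with anti-CD9 Ab. Its monocyte/macrophage and neutrophil markers were higher. Their part in the Tnfrsf13b difference was not tested. At equal depth, 23 of 150 plasma cell-like cells (15.3%, 9.98 to 22.1) and 5 of 139 (3.60%, 1.18 to 8.19) had a UMI. B cell-like cells had 12 and 15 UMIs, or 150 (77.6 to 262) and 73.4 (41.1 to 121) CPM, with overlapping intervals. None of the 3 members with 50 UMIs in plasma cell-like cells was past 2-fold, where 4.84% and 4.50% of 4336 genes were at least 2-fold higher and lower.

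Myeloid and T cells also carried Tnfrsf13b. Microglia-like cells had 485 and 136 UMIs, or 45.3 (41.4 to 49.5) and 44.6 (37.4 to 52.7) CPM, and monocyte/macrophage-like cells 43.6 (33.4 to 55.9) and 27.7 (23.9 to 31.9) CPM. T cell-like cells had 32.8 (27.2 to 39.2) and 21.3 (15.6 to 28.4) CPM. Among T cell clusters the one led by Tnfrsf4, Ctla4 and Foxp3, genes of regulatory T cells, had 67.0 (46.7 to 93.2) and 37.8 (18.1 to 69.4) CPM, and the Il17a-led one 19.5 (11.3 to 31.2) and 10.9 (2.98 to 28.0) CPM. Neutrophil-like cells with anti-CD9 Ab had 17 UMIs in 2624 cells and 5.20 (3.03 to 8.33) CPM. The log2 ratio in microglia-like cells was -0.02 (-0.31 to 0.25), so a difference in either direction was not detectable at this depth.

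Tnfrsf17, which encodes BCMA, had its highest level in plasma cell-like cells, with 87 and 51 UMIs, or 58.5 (46.8 to 72.1) and 35.1 (26.1 to 46.1) CPM. B cell-like cells had 0 and 0 UMIs, which allows up to 37.6 and 14.7 CPM. T cell-like cells had 2 and 0 UMIs. The thinned shares in plasma cell-like cells, 4.67% (1.90 to 9.38) and 4.32% (1.60 to 9.16), overlapped widely.

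Microglia-like cells also had Tnfrsf17 UMIs, 134 and 10, or 12.5 (10.5 to 14.8) and 3.28 (1.57 to 6.03) CPM, 3.82-fold lower with anti-CD9 Ab. The Siglech-led cluster held 91 and 7 of these UMIs, at 22.4 (18.1 to 27.5) and 4.64 (1.87 to 9.57) CPM, and the Lpl-led cluster 6.47 and 1.94 CPM. At equal depth 1.63% (1.11 to 2.31) and 0.239% (0.0290 to 0.862) of microglia-like cells had a UMI, against 0.108% (0.0130 to 0.388) and 0 of 723 T cell-like cells. With predicted doublets left out the levels were 13.5 and 3.52 CPM. Plasma cell markers in microglia-like cells summed to 318 and 195 CPM, T cell markers to 173 and 20.6 CPM and B cell markers to 85.3 and 63.9 CPM. Their part in the result was not tested.

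B cell-like cells were a larger share of the anti-CD9 Ab library, and plasma cell-like cells were not. B cell-like cells were 29 of 7467 (0.388%, 0.260 to 0.557) and 98 of 9162 (1.07%, 0.869 to 1.30), a ratio of 2.75. Plasma cell-like cells were 152 (2.04%, 1.73 to 2.38) and 145 (1.58%, 1.34 to 1.86). Relative to T cell-like cells, which were 28.7% and 8.50% of kept cells, there were 1.36 and 12.6 B cell-like cells and 7.10 and 18.6 plasma cell-like cells for every 100. An unnamed cluster of 655 and 196 cells with 5 of 7 T cell markers up was not counted among these T cells. Shares of a sorted suspension depend on every other class, and the anti-CD9 Ab library held 28.6% neutrophil-like cells.

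**Figure D4:**
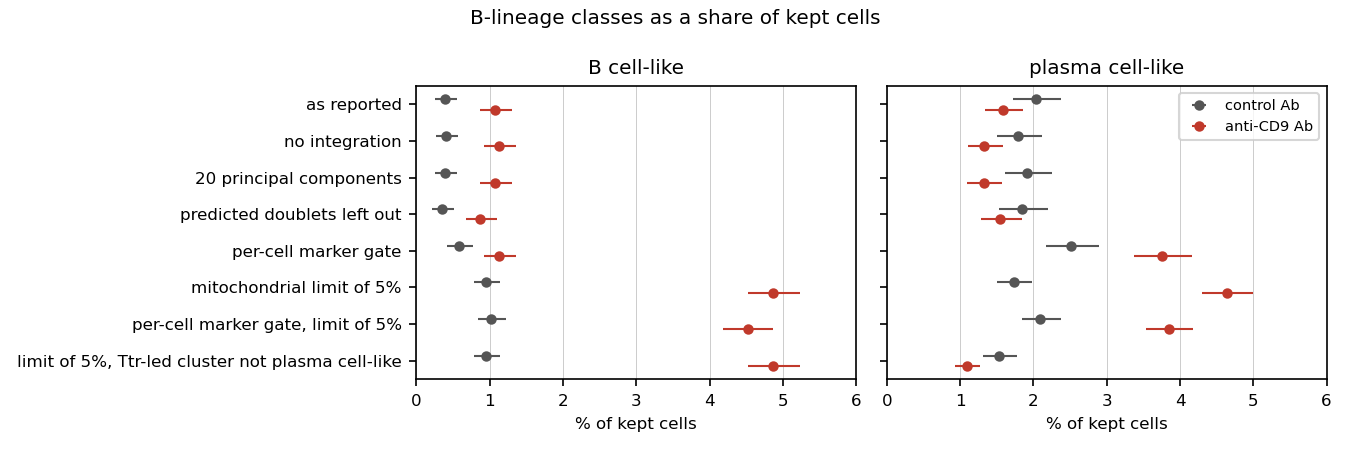
B cell-like (left) and plasma cell-like (right) cells as a percent of kept cells (x axis) under 8 ways of keeping and naming cells (y axis), control Ab in gray and anti-CD9 Ab in red; bars are exact 95% binomial intervals. B cell-like cells are a larger share with anti-CD9 Ab in each row, while plasma cell-like cells change order with the gate and at 5%, and not at 5% when the Ttr-led cluster is left out of the class.

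The mitochondrial limit weighed heavily on B cells. At 5% instead of 2%, B cell-like cells numbered 111 (0.950%, 0.782 to 1.14) and 704 (4.87%, 4.53 to 5.23), a ratio of 5.13. Only 27.9% and 14.8% of these cells lay within the 2% limit, against 75.2% and 68.2% of microglia-like cells. A gate on single cells, which asked for UMIs of 2 of 5 B cell genes without the plasma genes, gave 0.576% and 1.12%. Plasma cell-like cells were the larger share with anti-CD9 Ab in the same settings, with 1.73% and 4.64% at the 5% limit and 2.52% and 3.75% with the gate.

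This change of order rested on cells of a Ttr-led cluster. In the clustering at 5% the class held 23 and 513 cells of a shallow cluster led by Ttr, Mzb1 and Ighg2c, with 5 of 8 plasma cell markers up and a median of 832.5 UMIs. Of the 671 anti-CD9 Ab cells of the class, 429 were within the 2% limit, and 283 of these had been in the unnamed Ttr-led cluster there. Without that cluster the class had 179 (1.53%, 1.32 to 1.77) and 158 cells (1.09%, 0.930 to 1.28) at 5%, the same order as at 2%. With the gate, 0 of 188 and 186 of 344 cells lay in the Ttr-led cluster. Whether these are plasma cells was not tested. Tnfrsf13b in the class without that cluster was at 181 (161 to 203) and 112 (95.5 to 130) CPM at 5%. Its thinned shares there were 15.3% (10.4 to 21.5) and 7.24% (3.67 to 12.6). These intervals overlapped, whereas those of the thinned shares at 2% did not.

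With these more numerous B cells, the receptors could be measured more closely. At the 5% limit Cxcr5 had 27 and 223 UMIs in B cell-like cells, or 84.0 (55.4 to 122) and 150 (131 to 171) CPM, higher with anti-CD9 Ab where the 2% limit had shown the opposite order. The thinned share was nevertheless 13.8% in each library. Tnfrsf13c had 71 and 276 UMIs, or 221 (173 to 279) and 186 (165 to 209) CPM, and thinned shares of 14.9% and 16.3%. Tnfrsf13b had 66 and 162 UMIs, or 205 (159 to 261) and 109 (93.1 to 127) CPM. By clusters, the directions of Tnfrsf13b and Tnfrsf13c were thus the same at both limits, while that of Cxcr5 was not. Under the per-cell gate Tnfrsf13c had the opposite direction, with log2 ratios of 0.59 at 2% and 0.52 at 5%. At 5%, Tnfrsf17 had 1 and 0 UMIs in B cell-like cells.

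**Figure D5:**
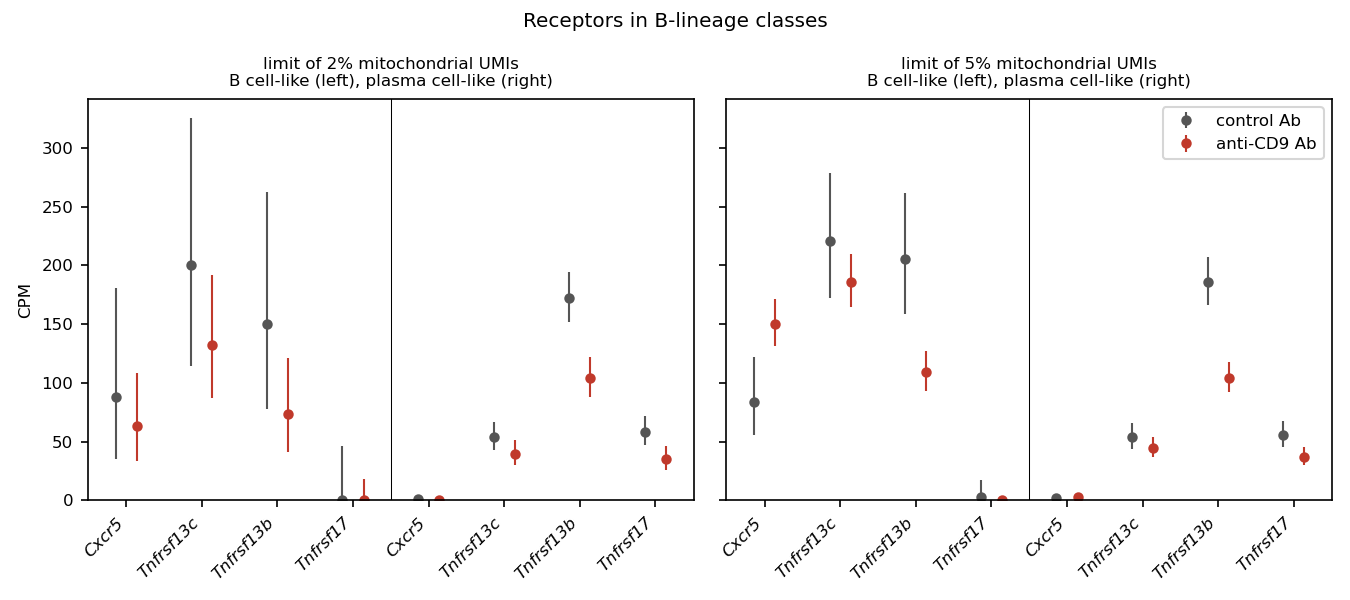
CPM (y axis) of the 4 receptor genes in B cell-like cells (left of each line) and plasma cell-like cells (right) at the 2% and the 5% mitochondrial limit, the latter with the Ttr-led cluster among plasma cell-like cells, control Ab in gray and anti-CD9 Ab in red, with exact 95% Poisson intervals. Tnfrsf13b is lower with anti-CD9 Ab in both classes at both limits, and Cxcr5 in B cell-like cells changes order between limits.

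In single B cells the receptors could be compared at equal depth. At the 5% limit, 13 of 105 Tnfrsf13c-positive B cell-like cells of the anti-CD9 Ab library (12.4%, 6.76 to 20.2) and 76 of 539 negative ones (14.1%, 11.3 to 17.3) had a Cxcr5 UMI. For Tnfrsf13b the shares were 14.3% (8.22 to 22.5) and 8.53% (6.32 to 11.2). These intervals overlapped. With control Ab, 6 of 14 Tnfrsf13c-positive cells (42.9%, 17.7 to 71.1) and 7 of 80 negative ones (8.75%, 3.59 to 17.2) had a Tnfrsf13b UMI, and these did not.

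The genes most like each member were found over 41 groups of at least 30 cells, 1 for each cluster and library, by Pearson correlation of log2(CPM + 10). Groups of a library share its free RNA and depth, and these values are descriptions. Cxcl13 was most like Ccl2 (r = 0.81), Ccl12 (0.80), both monocyte chemoattractants, and Saa3 (0.76), an acute-phase gene, followed by Gm22146 and Fcgr2b (both 0.71). Cxcr5 was most like Themis2 (0.75), Gm19951, Mrgpra2a, Cd80 and Socs3. Tnfsf13b was most like Ntpcr (0.89), 4931422A03Rik, Usp12, Nlrp1b and Nectin4.

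Among the receptors, Tnfrsf13c was most like Vpreb3 (0.92), Cd79a (0.92), Fcrla (0.91), Pou2af1 (0.91) and H2-Eb2 (0.90), and Cd79a encodes a chain of the B cell receptor complex. Tnfrsf17 was most like Edem2 (0.84), Prg2 (0.83), Ccr10, Igkv3-7 and Oosp1. Tnfrsf13b was most like Pdia4 (0.78), Ssr4 (0.75), Hsp90b1 (0.75) and Pdia6 (0.74), which serve protein folding and translocation in the endoplasmic reticulum, and Srm (0.73). The leading genes of the BAFF-R and TACI patterns were therefore of different kinds, B cell genes for the former and secretory genes for the latter.

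The wider pathway was described with 31 further genes, listed as other ligands, other receptors, BAFF receptor signaling, and germinal center and follicular helper genes. In microglia-like cells 19 reached 50 UMIs, of which 1 was at least 2-fold higher with anti-CD9 Ab and 3 at least 2-fold lower, where 3.32% and 4.51% of all genes lay past those folds. Their median log2 ratio was 0.20, beside 0.01 over all 11134 genes. The higher gene was Cd40, the receptor for T cell help, at 6.91 and 22.9 CPM (74 and 70 UMIs, log2 ratio 1.73, 1.24 to 2.22). The lower ones were Ltb, Icos and Pdcd1, at 26.1 and 12.1, 13.9 and 2.62, and 79.5 and 22.0 CPM. Icos, and Pdcd1 in part, are T cell genes. The T cell markers given above stood in the same order, but their part in the lower Ltb, Icos and Pdcd1 was not tested. The T cell-like class held Icos at 671 and 670 CPM and Ltb at 911 and 826 CPM. Its Pdcd1 level, 71.6 and 206 CPM, went the opposite way to that of microglia-like cells. With control Ab that level was no higher than the 79.5 CPM of microglia-like cells.

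All 10 BAFF receptor signaling genes reached 50 UMIs in microglia-like cells, and 0 were past 2-fold in either direction, with a median log2 ratio of 0.23. Birc3, an inhibitor of apoptosis induced by NF-kB, was the furthest, at 76.0 and 139 CPM (814 and 425 UMIs, log2 ratio 0.87, 0.70 to 1.04). Nfkb2, whose product is processed when BAFF-R signals, had 15.6 and 22.3 CPM (0.51, 0.09 to 0.93). Map3k14, the kinase NIK of the same branch, had 72.5 and 69.1 CPM (-0.07, -0.29 to 0.15). Tnfsf13, the APRIL gene, had 22.2 and 22.3 CPM.

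In monocyte/macrophage-like cells the same 10 genes had a median log2 ratio of 0.60, beside -0.03 over 9151 genes. Of these 10, Birc3 (75.2 and 196 CPM, log2 ratio 1.38) and Nfkb2 (21.1 and 44.6 CPM, 1.08) were at least 2-fold higher with anti-CD9 Ab, where 7.90% of all genes lay past that fold in that direction and 6.38% in the other. Cd40 was at 22.5 and 93.4 CPM (2.05, 1.54 to 2.61). Tnfsf13, by contrast, was at 269 and 100.1 CPM (-1.43, -1.61 to -1.24), so APRIL and BAFF messages were both lower with anti-CD9 Ab in this class. The 3 members with 50 UMIs here, Cxcl13, Tnfsf13b and Tnfrsf13b, were all lower with anti-CD9 Ab, 2 of them, Cxcl13 and Tnfsf13b, by at least 2-fold. The control Ab value of Cxcl13 rested on 11 cells with a UMI, and its log2 ratio was -0.047 with 20 components.

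In dendritic cell-like cells 6 of the 10 signaling genes were at least 2-fold higher with anti-CD9 Ab, with a median log2 ratio of 1.06, where 7.49% of all 5980 genes lay past that fold and 3.76% past the opposite one. Among them were Traf3 (123 and 268 CPM), Birc2 (95.7 and 243) and Map3k14 (94.1 and 222). Ccr7, which guides dendritic cells to lymph nodes, was at 102 and 480 CPM in this class (2.23, 1.86 to 2.63). The Ccr7-led cells named above were 17 and 161 in the clustering without integration, so the makeup of the class differed between libraries.

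In B cell-like cells only 4 of the 31 genes reached 50 UMIs, and 0 were past 2-fold, where 11.5% of 960 genes were at least 2-fold higher and 4.69% lower. Ltb, which B cells use to organize follicles, was at 814 and 475 CPM (65 and 97 UMIs, log2 ratio -0.78, -1.25 to -0.30). Birc3 was at 225 and 367 CPM (0.70, -0.05 to 1.53). None of the 6 members reached 50 UMIs in this class.

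In T cell-like cells 22 of the 31 genes reached 50 UMIs, 2 at least 2-fold higher with anti-CD9 Ab and 1 at least 2-fold lower, where 3.61% and 2.56% of 9133 genes lay past those folds. The higher ones were Cxcr4, the receptor of CXCL12, at 9.76 and 55.6 CPM (log2 ratio 2.51, 1.96 to 3.09), and Pdcd1, which encodes PD-1, at 71.6 and 206 CPM (1.52, 1.30 to 1.75). Over all kept cells Cxcr4 was higher as well, at 17.8 and 101 CPM (2.51, 2.36 to 2.66), while Pdcd1 was lower, at 61.2 and 39.0 CPM. Cd40lg, the T cell ligand of CD40, was the lower one, at 101 and 50.5 CPM (-1.01, -1.33 to -0.69). The Il17a-led cluster of this class had 661 and 140 cells and its cycling cluster 37 and 89. The makeup of the class thus differed between libraries. Of the 3 members with 50 UMIs, 1 was at least 2-fold higher, Cxcl13, at 7.05 (4.61 to 10.3) and 26.4 (20.01 to 34.2) CPM, the class taken above as background for that gene, and 0 were at least 2-fold lower.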

How the data were processed

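Droplet 3' single-cell libraries were analyzed. The deposited files hold whole-number UMI counts per gene and barcode that the authors made with Cell Ranger (8.0.0 and GRCm39 per the labels; the paper's methods name an earlier version and build), filtered to cells and not normalized. The libraries had 12245 and 15173 barcodes and 38042608 and 40825201 UMIs, with at least 500 per barcode.

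The 6 members and all lists were chosen with earlier results of these data known. Following the study's limits, barcodes with 200 to 7500 genes and at most 2% mitochondrial UMIs were kept. Clusters came from Seurat 5.3.0 in R 4.3.3 (CCA anchors, 2000 variable genes without the members, 30 components, resolution 0.8). A cluster was named when at least 50% and at least 3 of a class's markers were up (log2 ratio of 1 or more at a pseudocount of 20 CPM, UMI in 10% of cells), at most 50% of its cells were predicted doublets, and its leading genes did not favor another class. Clusters that met the limits for more than 1 class stayed unnamed, except T and NK cells together. So did clusters with no own marker among the leading genes and a median depth under the overall median divided by 3. These naming limits were set after seeing the data. Doublets were marked by a simulated-doublet neighbor score, at a rate of 0.8% per 1000 barcodes (10.6% and 12.3% of kept cells), and not removed.

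UMIs were summed per library and class with scipy 1.17.1. Ratios have exact binomial intervals conditional on the sum of both counts. A count of 0 was given a limit of 3 counts per library. Lists used genes with at least 50 UMIs. Gene ratios that faced 0 UMIs in a library took 3 counts there. Genes were named by rule: the members in each class, the pathway genes past 2-fold or of known role, marker genes of the classes, and the 5 genes (at least 200 UMIs) most like each member. Calculations were tested on simulated data.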

Additional observations from a re-analysis of the deposited data

Results flagged for a closer look

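The ratios of both ligands had opposite signs in microglia-like and monocyte/macrophage-like cells, which did not hold under every alternative. Cxcl13 had a log2 ratio (positive where higher with anti-CD9 Ab) of 3.20 in microglia-like cells and -1.46 in monocyte/macrophage-like cells. Tnfsf13b had 0.74 in microglia-like cells and -1.01 in monocyte/macrophage-like cells. The differences between these classes were not tested, since each antibody had 1 library. The macrophage value of Cxcl13 rested on 11 cells with a UMI in the control Ab library. It was -0.047 with 20 components and 3.78 without the 10 highest cells, which took 10 of those 11 cells but 10 of 71 with anti-CD9 Ab. Tnfsf13b in microglia-like cells was -0.080 without integration, and 0.76 there when microglia were named from 3 markers.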

How the results depend on the processing

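Of 183 alternative values for 35 results, 118 moved by less than their counting interval in the same direction, 55 moved further and 10 reversed. The per-cell gate combined with the 5% limit, the 5% limit without the Ttr-led cluster in the plasma cell-like class, the removal of the 10 highest cells and the naming of microglia from 3 markers were chosen after seeing the data. No paired analysis was possible because each antibody had 1 library, and no replicate was left out.

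For the log2 ratio of Cxcl13 over all kept cells, the 5% mitochondrial limit gave 2.04, no quality limit 2.13 and leaving out predicted doublets 1.66. In microglia-like cells it was 3.51 at 5%, 2.15 without integration, 3.07 with 20 components, 3.06 without doublets, and 3.39 without integration when microglia were named from 3 markers. In monocyte/macrophage-like cells it was -0.047 with 20 components and 3.78 without the 10 highest cells. That removal took 10 of the 11 control Ab cells with a UMI but 10 of 71 with anti-CD9 Ab, so it cannot settle the order. The cause of these shifts was not tested.

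The microglia-like share of Cxcl13 UMIs with control Ab was 72.5% without integration, 69.0% with 20 components, 79.9% without doublets, 79.3% from 3 markers and 82.5% from 3 markers without integration. With anti-CD9 Ab it was 6.17%, 51.9%, 65.8%, 65.3% and 65.5% in the same order, and 68.5% at 5%. For Tnfsf13b with control Ab it was 75.7% at 5%, 72.5% without integration, 62.5% with 20 components, 75.5% without doublets and 78.8% from 3 markers without integration. With anti-CD9 Ab it was 58.2% at 5%, 6.67% without integration, 52.7% without doublets and 51.7% from 3 markers. Without integration only 210 anti-CD9 Ab cells were microglia-like.

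Microglia-like cells with a Cxcl13 UMI were 8.78% and 25.6% unthinned and 5.62% and 20.8% at 2000 UMIs. With anti-CD9 Ab they were 17.96% at 5% and 7.25% without integration. In monocyte/macrophage-like cells the share was 0.680% with control Ab without integration and 5.50% with anti-CD9 Ab unthinned.

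Tnfsf13b in microglia-like cells reversed to -0.080 without integration, and was 0.76 without integration when microglia were named from 3 markers. Cxcr5 in B cell-like cells reversed to 0.84 at 5%, 1.07 with the gate and 1.48 with both. Tnfrsf13c reversed to 0.59 with the gate and 0.52 with both in B cell-like cells, to 0.082 with both in plasma cell-like cells, and to -0.16 over all kept cells without doublets, where it was 0.98 at 5% and 0.94 with no quality limit. The median log2 ratio of the pathway genes in B cell-like cells reversed to -0.049 without doublets.

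B cell-like cells were 0.950% and 4.87% of kept cells at 5%, 1.02% and 4.52% with the gate at 5%, and 0.576% with control Ab with the gate. Plasma cell-like cells with anti-CD9 Ab were 4.64% at 5%, 1.33% without integration, 1.32% with 20 components, 3.75% with the gate and 3.85% with both, and with control Ab 2.52% with the gate. At 5% without the Ttr-led cluster they were 1.53% and 1.09%. B cell-like cells numbered 29 with control Ab, which limits every receptor value in them.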
